A study of Drosophila melanogaster with 36 samples.

Results

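The genes described here encode pore-forming or core subunits of the ion channels that set the electrical behavior of neurons, and 10 of the 17562 genes in the table of read counts were taken by symbol: para, Sh, Shab, Shal, Shaw, eag, cac, slo, na and unc80. All 10 were counted in the table and all 10 passed the filter on low counts in every comparison. RNA was sequenced from brains of female flies (Drosophila melanogaster) in which a GAL4 driver line expressed a GFP reporter, and each line was sampled at day 5 and day 70 of age, with actinomycin D present while the brains were dissociated. The lines 56F03 and 10E12 mark ensheathing glia, the glia that wrap the neuropil, and 86E01 marks astrocyte-like glia, which are called astrocytes in the labels and below. From each line, GFP+ cells were sorted from pools of dissociated brains, and the unsorted cell suspension served as whole brain, so that the 36 libraries formed 12 groups with 3 replicates each: whole brain of 3 lines (18 libraries), sorted ensheathing glia of 2 lines (12 libraries) and sorted astrocytes of 1 line (6 libraries), each at both ages. All groups carried a driver and the reporter. Each glial population is what its driver fragment marks and what passed the GFP gate once cells stained by DAPI were left out, and the whole brain suspension still held its GFP+ cells.

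Voltage-gated channels open when the membrane potential changes, and the selectivity of their pore decides the effect. Sodium channels carry the rising phase of the action potential, potassium channels end it and set the interval to the next, and calcium channels at the nerve terminal couple it to transmitter release. A sodium leak channel holds the resting potential closer to threshold. In the fly these genes are known mainly from neurons and muscle, through mutants that shake under ether, become paralysed when warmed, or lose the daily rhythm of activity. Glia, by contrast, are known for background and inward rectifying potassium channels and for chloride channels.

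The 10 genes lie on X, 2L, 3L and 3R, in coordinates of build dm6 for the whole gene with its exons and introns. The sodium channel gene para (paralytic), which encodes the main pore-forming subunit for the action potential, lies at chrX:16455027-16533096 on the minus strand. Among the potassium channel genes, Sh (Shaker, a fast inactivating channel) lies at chrX:17924307-18063247, Shab (a delayed rectifier) at chr3L:2895017-2959579, Shal (an inactivating channel of cell bodies and dendrites) at chr3L:19566851-19584568 and Shaw at chr2L:3718185-3729145. The gene eag (ether a go-go) lies at chrX:14955477-15009989, and slo (slowpoke, a large-conductance channel opened by calcium and voltage) lies at chr3R:24662491-24711595. The calcium channel gene cac (cacophony), the channel of presynaptic active zones, lies at chrX:11931280-11985087. The leak channel gene na (narrow abdomen) lies at chrX:14266367-14277416, and unc80, which encodes a partner protein that the leak channel needs, lies at chr3R:27662439-27677099. No exon of these genes overlapped an exon of another annotated gene, transposable elements left aside.

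Depth varied widely, from 912285 to 17060052 total counts in a library (median 6611360). The 10 channel genes together held 339 to 41596 counts per library. The labels were checked against markers. The neuronal gene elav had 1301 to 2766 normalized counts (counts divided by the DESeq2 size factor of the library) in whole brain and 42.0 to 435 in sorted libraries, and the glial gene repo had 163 to 550 and 904 to 3196. Neuronal RNA was therefore lower in the sorted cells but not absent, and no neuron marker was at 0 in any library. The summed hemocyte markers were also higher in sorted libraries, 2662 to 26649 against 90.6 to 1545 in whole brain. The summed ensheathing glia markers did not separate the glial types. They had 4989 to 6934 in ensheathing glia and 4664 to 6240 in astrocytes at day 5, and 2560 to 3893 and 1753 to 2887 at day 70. Most of this sum came from CG9657, with a median of 3237 in sorted libraries against 541 for egr and 583 for sgl. Per the authors, egr and sgl were higher in sorted cells of the ensheathing glia lines than in astrocytes. The summed astrocyte markers lay apart, at 26139 to 43656 and 127690 to 142739 at day 5, and at 12887 to 17545 and 20692 to 34107 at day 70. The library of whole brain 10E12 d70 replicate 1 stood apart. It had the fewest counts, a median correlation of 0.823 with the replicates of its group, and a sum of 41142 normalized counts over the 10 channel genes, where the other whole brain libraries had 14306 to 25364.

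**Figure D1:**
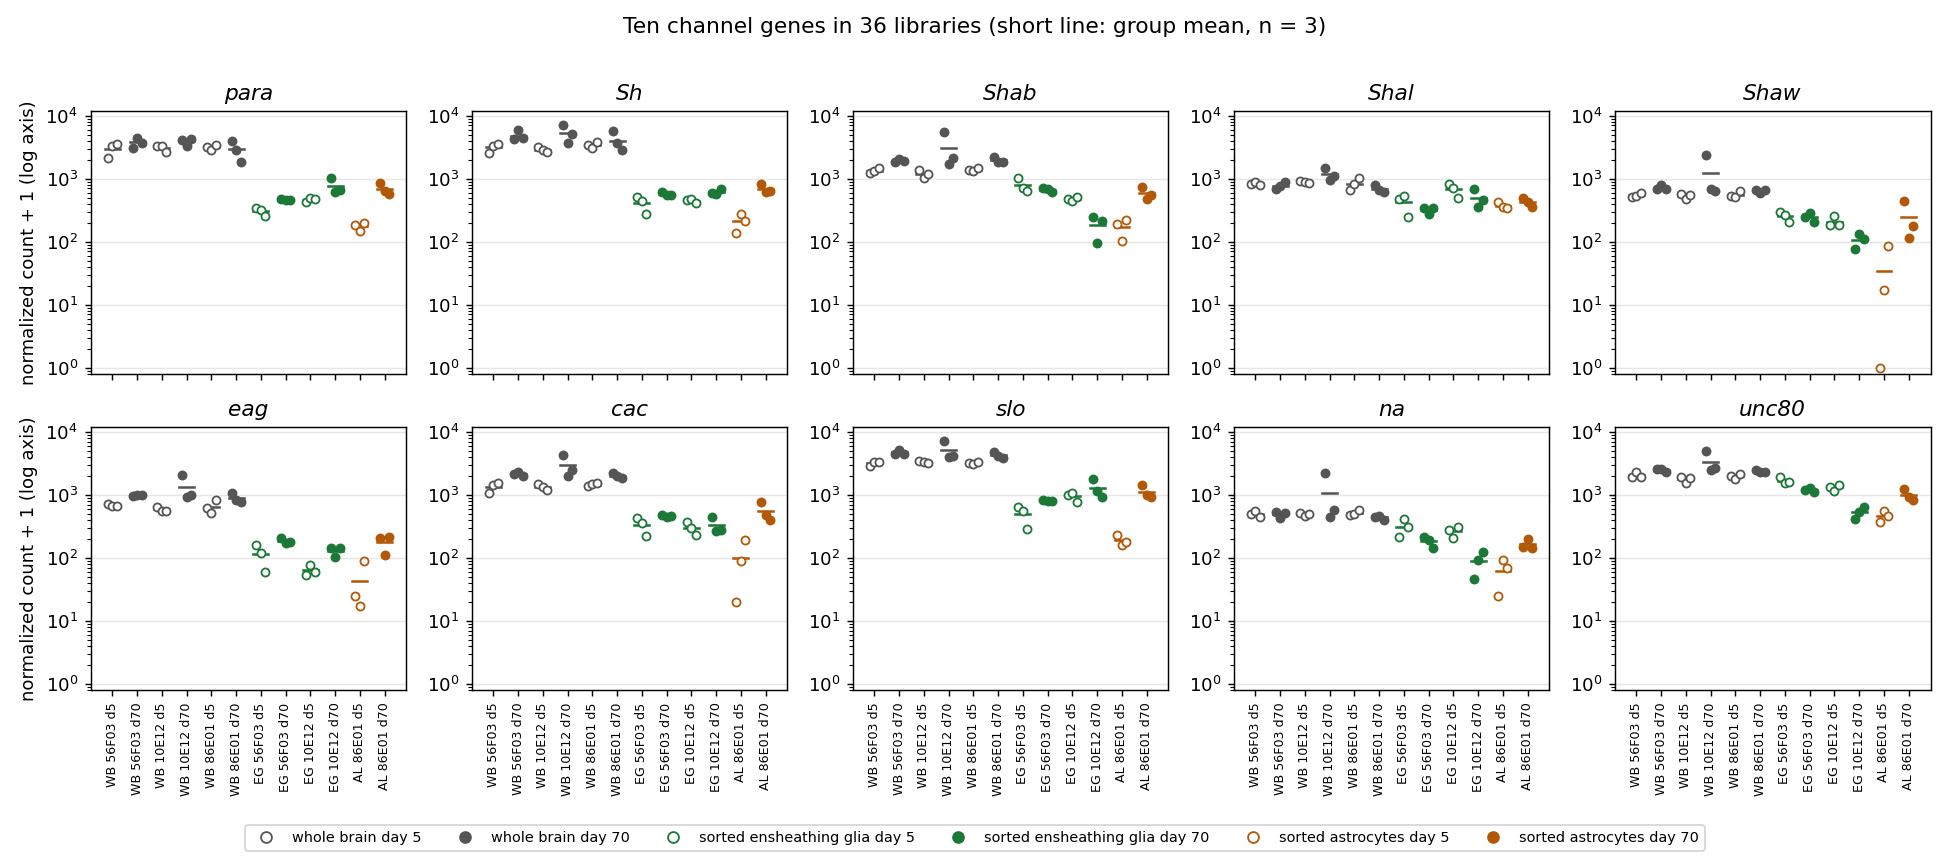
Normalized counts plus 1 (log axis) of the 10 channel genes in each of the 36 libraries, by group on the x axis (WB whole brain, EG sorted ensheathing glia, AL sorted astrocytes; open points day 5, filled points day 70, short lines the group means of 3 replicates). All 6 whole brain group means lie above all 6 sorted group means for all 10 genes, and Shaw has 0 counts in sorted astrocytes d5 replicate 1.

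All 10 channel genes had less RNA in sorted glia than in whole brain, but to unequal extents. Averaged over lines and ages, para, Sh, eag and cac were lower by 5.22- to 7.78-fold in ensheathing glia. There slo, Shab, Shaw and na were lower by 3.11- to 4.79-fold, and Shal and the leak channel partner unc80 by 1.99- and 2.15-fold. For each of the 10 genes the lowest of the 6 whole brain group means was above the highest of the 6 sorted group means. For 9 of the 10 the lowest of all 12 group means was that of sorted astrocytes d5, and for Shal it was that of sorted ensheathing glia 56F03 d70. Many neighbours in these orders did not differ beyond their spread: of 110 pairs of neighbouring groups, 38 were separated by more than the larger of their 2 SDs. In such bulk libraries, fewer cells of a type and less RNA per cell cannot be told apart.

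The sodium channel gene para had 1841 normalized counts in the lowest whole brain library, 3273 in the median and 4486 in the highest of 18. In the 12 ensheathing glia libraries it had 250, 467 and 1041, and in the 6 astrocyte libraries 146, 386 and 868. No sorted library reached the lowest whole brain library. The log2 difference between ensheathing glia and whole brain of the same lines was -2.86 ± 0.11 (standard error from the test; 12 against 12 libraries; edgeR adjusted p = 4.807e-15), a 7.25-fold lower level. In astrocytes against whole brain of the same line it was -3.14 ± 0.20 (6 against 6 libraries; edgeR adjusted p = 1.823e-07). Sh spanned 2546 to 7069 in whole brain with a median of 3608, and 279 to 672 in ensheathing glia with a median of 525. Its differences of -2.96 ± 0.11 in ensheathing glia and -3.29 ± 0.22 in astrocytes (edgeR adjusted p = 1.067e-15 and 2.527e-07) were near those of para. The gene eag, which had at most 205 normalized counts in ensheathing glia and 214 in astrocytes against at least 517 in whole brain, was lower by similar amounts, with -2.93 ± 0.14 and -3.05 ± 0.35 (edgeR adjusted p = 5.728e-14 and 1.449e-05).

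The presynaptic calcium channel gene cac had 1055 to 4344 normalized counts in whole brain, 217 to 478 in ensheathing glia and 18.7 to 771 in astrocytes. It was lower by 5.22-fold in ensheathing glia (log2 difference -2.38 ± 0.13, edgeR adjusted p = 6.414e-13) and by 6.94-fold in astrocytes (-2.80 ± 0.34, edgeR adjusted p = 2.432e-05). The calcium-activated potassium channel gene slo lay in the same range, with differences of -2.26 ± 0.13 and -3.03 ± 0.14 (edgeR adjusted p = 7.48e-13 and 2.804e-08). Shab and Shaw were intermediate. Shab differed by -1.92 ± 0.15 in ensheathing glia and -2.40 ± 0.18 in astrocytes (edgeR adjusted p = 2.676e-10 and 6.093e-07), and Shaw by -1.88 ± 0.15 and -2.55 ± 0.48 (edgeR adjusted p = 4.235e-10 and 0.0008314).

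Averaged over lines and ages, the smallest differences were those of Shal and unc80. Shal had 614 to 1454 normalized counts in whole brain (median 847), 247 to 815 in ensheathing glia (median 465) and 336 to 485 in astrocytes (median 390). The astrocyte libraries stayed below every whole brain library, but the ensheathing glia libraries overlapped with them. Its log2 differences were -0.99 ± 0.13 and -0.95 ± 0.14 (edgeR adjusted p = 4.04e-07 and 9.441e-05). For unc80 the ranges were 1511 to 4967 in whole brain (median 2277), 419 to 1928 in ensheathing glia (median 1250) and 364 to 1223 in astrocytes (median 690), with differences of -1.10 ± 0.09 and -1.69 ± 0.14 (edgeR adjusted p = 8.502e-10 and 1.031e-06). The channel that unc80 belongs with, na, differed by -1.64 ± 0.19 and -2.22 ± 0.23 (edgeR adjusted p = 1.279e-07 and 7.767e-06). In ensheathing glia these averages joined unequal ages and lines. At day 5 alone unc80 was at -0.38, Shal at -0.74, na at -0.82, Shab at -1.08 and Shaw at -1.28, and at day 70 alone they were at -1.78, -1.21, -2.43, -2.73 and -2.45. In line 56F03 alone na (-1.05) and Shab (-1.15) were as near to whole brain as Shal (-1.15), and in 10E12 alone they were at -2.21 and -2.66 and Shal at -0.81. The astrocyte averages joined unequal ages too, and each channel gene lay further below whole brain at day 5 than at day 70. At day 5 alone para was at -4.20, slo at -4.12, Shaw at -3.74, cac at -3.71 and na at -3.03. At day 70 alone they were at -2.09, -1.95, -1.40, -1.89 and -1.44.

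Thus 10 of 10 channel genes were called lower in ensheathing glia, where 28.6% of the 9984 genes tested were called lower, and the median log2 difference was -2.09 over the 10 genes and -0.06 over all genes. In astrocytes all 10 were called lower against 23.8% of 9369 genes, with medians of -2.67 and -0.06. The groups did not overlap for 7 genes in ensheathing glia (para, Sh, Shaw, eag, cac, slo and na; 5.91% of all genes tested lay apart and lower) and for all 10 in astrocytes (14.4%). All 14 neuron markers were lower as well, by a median of -1.82 in ensheathing glia (range -3.74 to -0.65) and -2.37 in astrocytes (range -4.18 to -1.41). Each of these 20 calls remained when any single library was left out. At day 70 alone, Shaw in astrocytes was at -1.40 and did not pass (edgeR adjusted p = 0.05296).

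**Figure D2:**
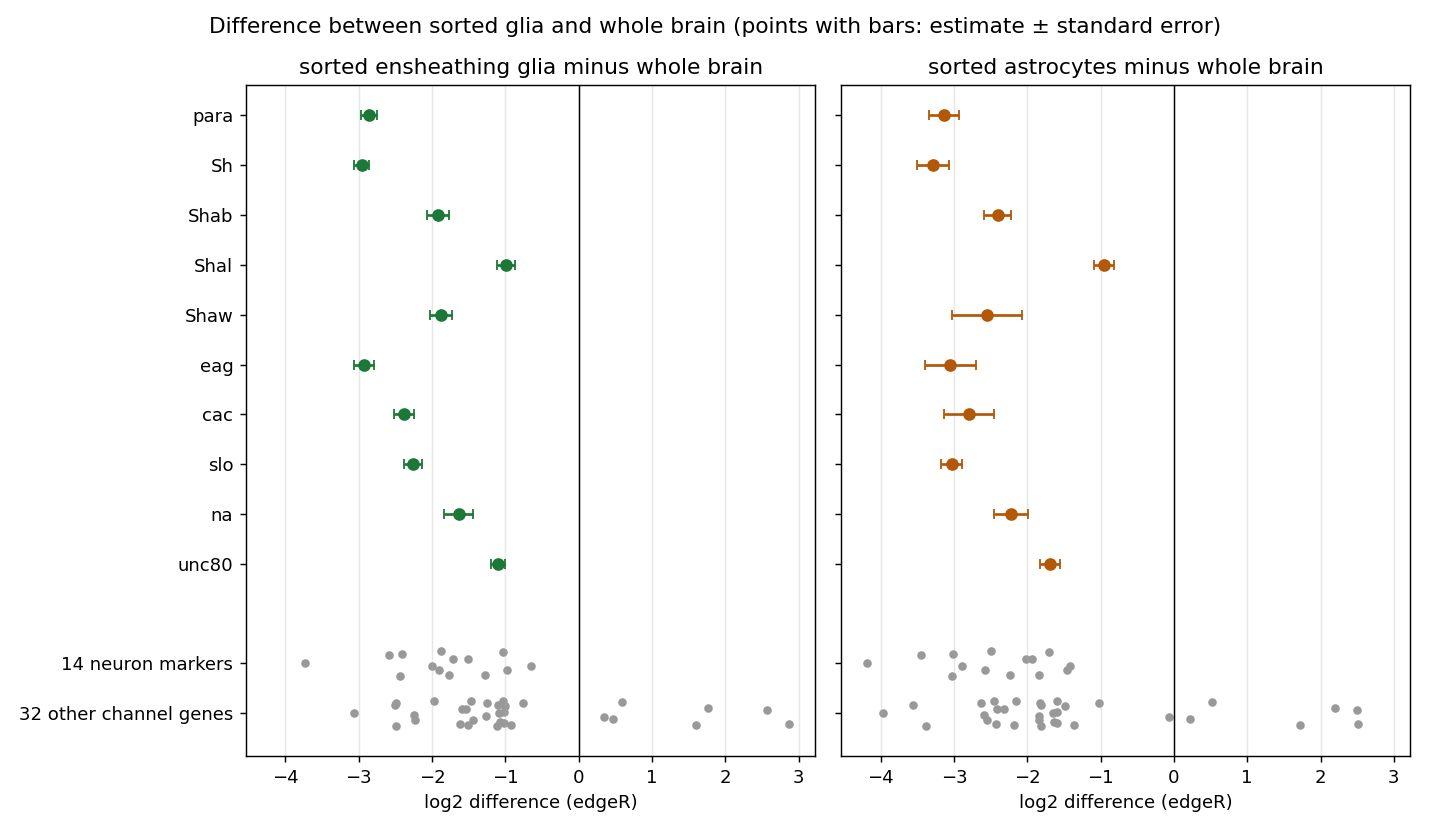
Log2 difference of sorted ensheathing glia (left) and sorted astrocytes (right) from whole brain of the same lines, for the 10 channel genes (points with bars of 1 standard error) and, in grey with no error shown, for 14 neuron markers and 32 other channel genes. Averaged over lines and ages, Shal and unc80 lie nearest to 0 among the 10, and 6 other channel genes were called higher in ensheathing glia.

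Scaled to the length of their exons, the channel genes did not keep their order between whole brain and glia. In whole brain, slo had the most RNA in all 18 libraries, at 388 ± 101 normalized counts per kb (mean ± SD), ahead of unc80 at 227 ± 71.1 and para at 202 ± 42.3. In ensheathing glia, unc80 was first at 115 ± 44.0 per kb, followed by Shal at 103 ± 39.5 and slo at 86.6 ± 35.5. These 3 genes did not differ beyond their spread, and each was first in at least 2 of the 12 libraries. The gap from slo to the next gene, Shab at 46.5 ± 22.5 per kb, was larger than either SD. In astrocytes the same 3 genes led, Shal at 86.2 ± 12.2 per kb, unc80 at 70.7 ± 31.9 and slo at 64.1 ± 52.7. These means join both ages, and the order of the 3 genes was not the same at each. In astrocytes Shal was at 80.7, unc80 at 44.4 and slo at 18.6 per kb at day 5, and at day 70 slo was at 109 and Shal at 91.7, with unc80 between them. In ensheathing glia unc80 was at 146, Shal at 119 and slo at 70.6 per kb at day 5, and at 84.4, 87.7 and 103 at day 70. The gene para was at 30.7 ± 12.6 per kb in ensheathing glia, with group means from 18.6 in 56F03 d5 to 47.4 in 10E12 d70, and at 26.6 ± 18.4 in astrocytes, with 10.7 at day 5 and 42.5 at day 70. The last place belonged to na in whole brain (73.9 ± 51.2 per kb) and to eag in both glial types (11.4 ± 4.85 and 10.3 ± 8.12 per kb).

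Since neuronal RNA was present in the sorted cells, the counts were also scaled to the summed counts of 14 neuron markers in each library. On this scale the median log2 difference over all genes was 1.57 in ensheathing glia and 2.23 in astrocytes, and the 14 markers themselves ran from -2.11 to 0.99 and from -2.05 to 0.82. Shal had 11.4 to 23.2 counts per 1000 neuron marker counts in whole brain (median 15.5), 16.8 to 45.9 in ensheathing glia (median 24.7) and 23.5 to 60.0 in astrocytes (median 30.1). The astrocyte libraries all lay above the whole brain libraries, and those of ensheathing glia overlapped with them. Its log2 difference was 0.62 ± 0.11 in ensheathing glia and 1.34 ± 0.19 in astrocytes (edgeR adjusted p = 1.906e-05 and 1.372e-05). The corresponding values of unc80 were 28.5 to 70.8 (median 42.2), 21.2 to 108 (median 72.7) and 44.1 to 90.6 (median 58.2), and it was higher by 0.55 ± 0.11 and 0.59 ± 0.18 (edgeR adjusted p = 5.673e-05 and 0.006435).

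The remaining genes were lower or not called per neuron marker count. In ensheathing glia, 6 genes were lower: Sh (-1.32 ± 0.10), eag (-1.30 ± 0.12), para (-1.23 ± 0.10), cac (-0.76 ± 0.11), slo (-0.64 ± 0.10) and Shab (-0.29 ± 0.13), with edgeR adjusted p between 9.83e-12 for Sh and 0.03614 for Shab. The lines did not move together for all of them. In 56F03 alone Shab was higher (0.43, edgeR adjusted p = 0.00133), as were Shaw (0.27) and na (0.56), with edgeR adjusted p of 0.04272 and 0.01363. In 10E12 alone Shab (-1.02) and Shaw (-0.71) were lower (edgeR adjusted p = 0.000937 and 0.03177), and na (-0.50) and slo (-0.24) were not called (edgeR adjusted p = 0.1732 and 0.2293). In astrocytes 5 were lower: Sh (-0.99 ± 0.22), eag (-0.92 ± 0.28), para (-0.87 ± 0.17), slo (-0.75 ± 0.16) and cac (-0.63 ± 0.27), with edgeR adjusted p between 0.0003869 for para and 0.04582 for cac. Neither Shaw (-0.22 and -0.49) nor na (0.03 and 0.06) was called in either glial type over all its libraries. Of all genes tested, 80.2% were called higher and 3.54% lower in ensheathing glia, and 80.1% and 2.11% in astrocytes. The lower calls depended on which neuronal RNA was taken as the scale. With elav alone, Shab, Shaw and slo became higher in ensheathing glia (0.69, 0.75 and 0.32, edgeR adjusted p = 0.0001545, 0.0002507 and 0.01064) and para was no longer called (-0.26, edgeR adjusted p = 0.06823). In astrocytes the 5 lower genes then lay between -0.20 for Sh and 0.26 for slo (edgeR adjusted p between 0.5683 and 0.9984). Averaged over lines and ages, Shal and unc80 were higher under all 3 scales, although unc80 did not pass in line 10E12 alone (0.15, edgeR adjusted p = 0.4797). There unc80 had 62.4 to 75.1 counts per 1000 neuron marker counts in ensheathing glia and 28.5 to 34.5 in whole brain at day 5, but 21.2, 37.9 and 41.1 against 70.8, 48.7 and 56.8 at day 70, so that the old ensheathing glia of this line lay below whole brain. In astrocytes the call of unc80 ended without replicate 2 (0.37, edgeR adjusted p = 0.08211). The lower call of Shab also ended without whole brain 10E12 d70 replicate 1 (-0.19, edgeR adjusted p = 0.09161).

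**Figure D3:**
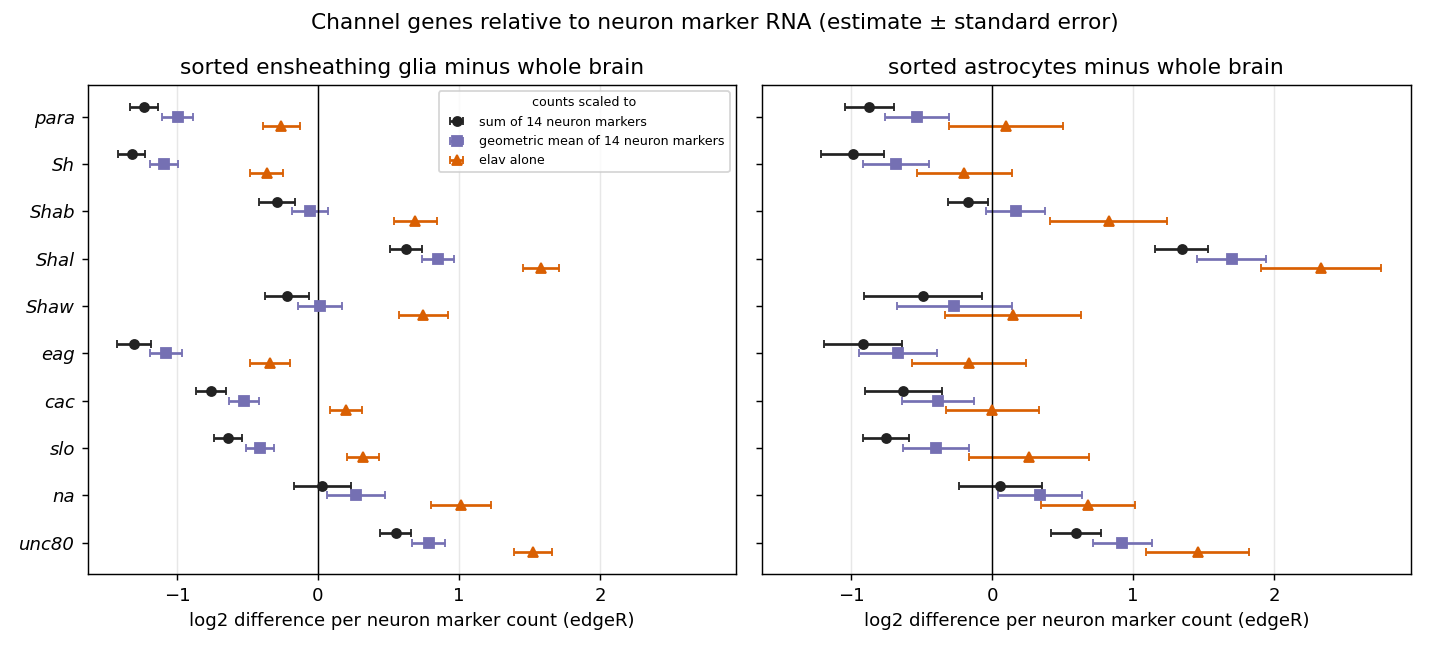
Log2 difference of sorted glia from whole brain after scaling counts to neuronal RNA, for ensheathing glia (left) and astrocytes (right), with bars of 1 standard error (circles: sum of 14 neuron markers; squares: their geometric mean; triangles: elav alone). Averaged over lines and ages, Shal and unc80 lie above 0 on each scale, and na lies at 0.03 and 0.06 on the summed scale. The other genes shift from below 0 toward or past 0 when elav alone is used.

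With age, the channel genes of sorted ensheathing glia moved in opposite directions. The action potential genes para and Sh and the potassium channel gene eag were higher at day 70, and the leak channel genes na and unc80 and the delayed rectifier gene Shab were lower. The other 4 genes (Shal, Shaw, cac and slo) did not pass the test. The 3 higher and 3 lower calls among 10 compare with 9.74% and 9.15% of the 8970 genes tested, and the median log2 difference was -0.08 over the 10 genes and 0.01 over all genes.

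In line 56F03, para had 339, 319 and 250 normalized counts at day 5 and 471, 463 and 458 at day 70, and in line 10E12 it had 418, 488 and 480 at day 5 and 1041, 622 and 657 at day 70. Within each line the old libraries all lay above the young ones. The log2 difference between the ages was 0.65 ± 0.15 (6 against 6 libraries, edgeR adjusted p = 0.00662). With 56F03 alone para passed, and with 10E12 alone it did not (edgeR adjusted p = 0.03348 and 0.1025). Its call also ended when replicate 1 or replicate 3 of every group was left out (edgeR adjusted p = 0.07981 and 0.05737). For eag the values in 56F03 were 159, 116 and 59.4 at day 5 and 205, 168 and 175 at day 70, and in 10E12 they were 52.1, 75.3 and 58.4 at day 5 and 139, 101 and 139 at day 70. They did not overlap within either line, with a difference of 0.86 ± 0.23 (edgeR adjusted p = 0.01924). Neither 56F03 nor 10E12 passed alone for eag (edgeR adjusted p = 0.1784 and 0.1283). Its call also ended when replicate 1, 2 or 3 of every group was left out (edgeR adjusted p = 0.08581, 0.07073 and 0.1536). Sh had 279 to 503 normalized counts in young and 546 to 672 in old libraries, so its groups did not overlap even across lines (4.29% of all genes tested lay apart and higher). Its difference was the smallest, 0.45 ± 0.14 (edgeR adjusted p = 0.03459), and its call ended when any of 8 single libraries was left out (edgeR adjusted p between 0.05038 and 0.0813).

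The leak channel genes fell together. The partner gene unc80 had 1928, 1529 and 1583 normalized counts at day 5 and 1197, 1302 and 1112 at day 70 in 56F03. In 10E12 it had 1336, 1150 and 1441 at day 5 and 419, 528 and 643 at day 70. Within both lines all old libraries lay below all young ones, and the log2 difference was -0.93 ± 0.17 (edgeR adjusted p = 0.002062). The channel gene na itself went from 216, 409 and 306 to 212, 188 and 141 in 56F03, and from 272, 208 and 302 to 45.2, 91.1 and 123 in 10E12. Its ages lay apart in each line, by a narrow margin in 56F03, and differed by -1.23 ± 0.26 (edgeR adjusted p = 0.005267). With 10E12 alone unc80 and na passed, at -1.36 and -1.66 (edgeR adjusted p = 0.006482 and 0.02775). With 56F03 alone neither passed, at -0.48 and -0.79 (edgeR adjusted p = 0.06053 and 0.07589). The call of na also ended when replicate 2 or replicate 3 of every group was left out (edgeR adjusted p = 0.07056 and 0.06241). The gene unc79, which encodes the third protein of this complex and had the group pattern most like that of unc80, was lower too, at -0.84 ± 0.16 (edgeR adjusted p = 0.002065). It went from 2193, 2001 and 1541 to 1385, 1320 and 1409 in 56F03, and from 1551, 1530 and 1663 to 724, 563 and 875 in 10E12.

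The delayed rectifier gene Shab was lower by -0.84 ± 0.26 (edgeR adjusted p = 0.03588), and this call rested on line 10E12. There it went from 481, 438 and 519 normalized counts to 247, 92.9 and 215, whereas in 56F03 it went from 1022, 705 and 635 to 701, 675 and 608, and the ages overlapped. Alone, the lines gave -1.42 (edgeR adjusted p = 0.03033) and -0.25 (edgeR adjusted p = 0.4726). The call ended when any of 7 single libraries was left out (edgeR adjusted p between 0.05446 and 0.07937). Of the genes not called, slo was at 0.55 ± 0.20, cac at 0.29 ± 0.19, Shal at -0.45 ± 0.21 and Shaw at -0.55 ± 0.22 (edgeR adjusted p = 0.0642, 0.339, 0.1482 and 0.1039).

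Whether the 2 ensheathing glia lines differed in their age effect was tested directly, and edgeR called none of the 10 genes, where 0.691% of 9265 genes were called. At an unadjusted p below 0.05 there were 3, and DESeq2 called 0 (2.8% of all genes). The largest estimates were 1.16 ± 0.41 for Shab, 0.95 ± 0.37 for Shaw and 0.86 ± 0.25 for unc80 (56F03 minus 10E12; edgeR adjusted p = 0.2276, 0.2638 and 0.1505), so the lines are not shown to differ, nor to act alike. Neuron markers also moved in both directions in ensheathing glia, with 3 of 14 higher and 4 lower at day 70, and their sum was 14723 to 23247 normalized counts in young and 13922 to 19725 in old libraries. The summed pan-glia markers went from 15972 to 24261 at day 5 to 5837 to 13017 at day 70. In 10E12 other lists went up, surface glia markers from 12404 to 18386 at day 5 to 28518 to 35792 at day 70 and hemocyte markers from 3170 to 9128 to 11122 to 16221, and the summed fat body markers were at 29903 in d70 replicate 1 against at most 553 in the other libraries of this line. In 56F03 surface glia markers were at 7621 to 11698 and 5164 to 8623, and hemocyte markers at 5702 to 11563 and 2662 to 6972. The summed photoreceptor markers went from 2884 to 5931 at day 5 to 8612 to 15602 at day 70 in 56F03. In 10E12 they went from 18850 to 29661 at day 5 to 28763 to 43090 at day 70. The part of these shifts in the channel results was not tested.

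**Figure D4:**
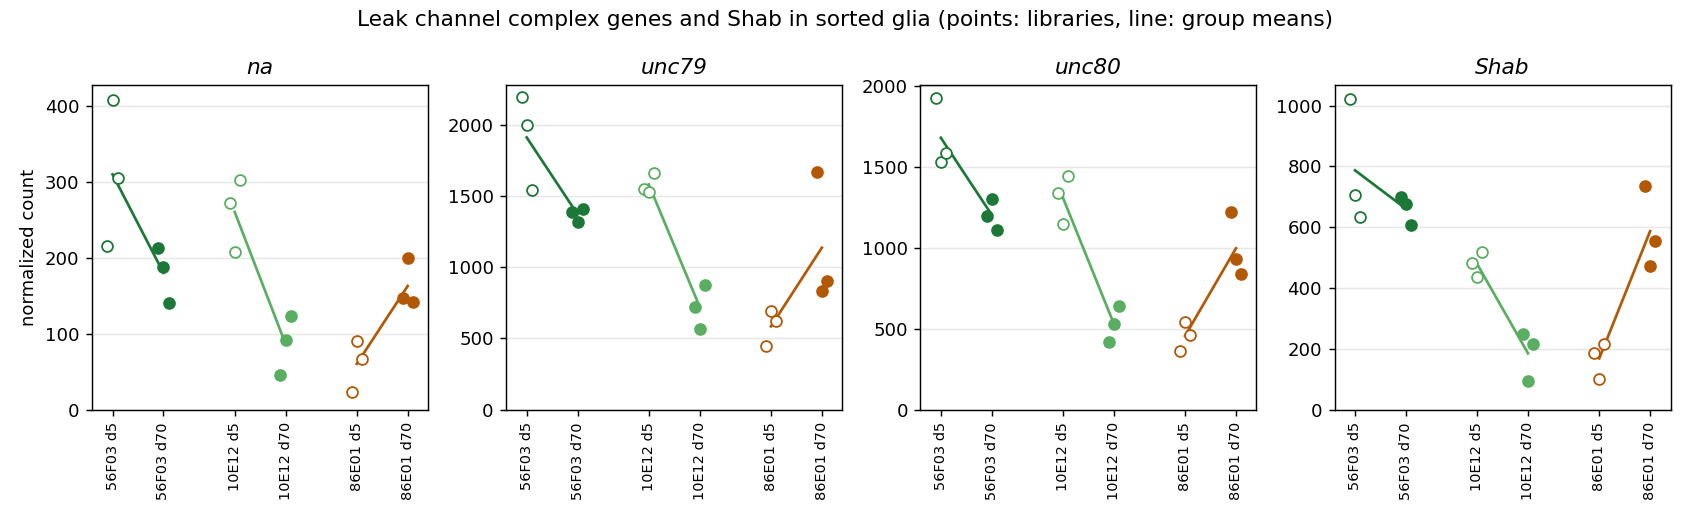
Normalized counts of the leak channel complex genes na, unc79 and unc80 and of Shab in the 18 sorted libraries by line and age (open points day 5, filled points day 70, lines joining the group means of 3 replicates; each panel has its own axis from 0). The 3 complex genes lie lower at day 70 in both ensheathing glia lines (56F03, 10E12) and higher in astrocytes (86E01), although the age difference of na and of unc79 in astrocytes was not called.

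In sorted astrocytes the channel genes had more RNA at day 70. The calcium-activated channel gene slo, the sodium channel gene para, Sh, Shab and unc80 rose by 2.24- to 6.12-fold, and the other 5 did not pass the test. The 5 higher calls compare with 2.8% of the 8585 genes tested, and the median log2 difference was 1.93 over the 10 genes and 0.11 over all genes. For 9 of the 10 genes, all but Shal, the 3 old libraries lay above the 3 young ones, as for 16.1% of all genes tested.

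The gene slo had 229, 160 and 179 normalized counts at day 5 and 1429, 995 and 911 at day 70. The old libraries were thus several-fold above the young ones, with a log2 difference of 2.61 ± 0.27 (3 against 3 libraries, edgeR adjusted p = 0.001769), and the call remained without any single library. For para the values were 182, 146 and 195 at day 5 and 868, 634 and 577 at day 70, a difference of 2.03 ± 0.27 (edgeR adjusted p = 0.004789) that also remained without any single library. Sh went from 135, 276 and 215 to 824, 604 and 643 (1.74 ± 0.31, edgeR adjusted p = 0.01534), and Shab from 187, 102 and 217 to 734, 474 and 553 (1.84 ± 0.35, edgeR adjusted p = 0.01922). The call of Sh ended without either of 2 old libraries, and that of Shab without any of 4 libraries. The gene unc80 went from 364, 543 and 460 to 1223, 930 and 837 (1.16 ± 0.26, edgeR adjusted p = 0.03433), and its call ended without any of the 6 libraries (edgeR adjusted p between 0.07266 and 0.0991).

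For Shaw, cac and eag, which were not called, the young astrocyte libraries spread widely. Shaw had 0, 16.0 and 83.4 normalized counts at day 5 (0, 9 and 174 counts) and 448, 113 and 179 at day 70, a difference of 2.71 ± 0.99 (edgeR adjusted p = 0.1523). In the library without a count, 3 counts would be 1.98 CPM. The gene cac went from 18.7, 89.1 and 189 to 771, 482 and 394 (2.39 ± 0.64, edgeR adjusted p = 0.06304) and eag from 23.3, 16.0 and 86.8 to 208, 110 and 214 (2.01 ± 0.69, edgeR adjusted p = 0.1294). In all 3 genes day 5 replicate 3 was the highest of the young libraries, and without it eag and cac passed the test at 3.27 and 3.26 (edgeR adjusted p = 0.0297 and 0.0332). It was also the deepest young library, with 13611810 total counts against 1514977 and 3903428 in replicates 1 and 2. The 10 channel genes together held 339 and 1010 counts in replicates 1 and 2 and 4230 in replicate 3. The calls gained without replicate 3 thus rest on few counts at day 5. The leak channel gene na had 23.3, 90.9 and 66.6 normalized counts at day 5 and 147, 200.4 and 141 at day 70 (1.42 ± 0.54, edgeR adjusted p = 0.1705). Shal alone overlapped between the ages, with 420.0, 359.8 and 336 against 485, 423 and 358 (0.23 ± 0.24, edgeR adjusted p = 0.6375).

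Neuron markers rose in the same comparison. Of 14, 7 were called higher at day 70 with a median log2 difference of 1.29, and their sum went from 5996 to 10416 normalized counts at day 5 to 15159 to 19162 at day 70. The sums of other marker lists went the other way, from 26995 to 31591 to 8110 to 13592 for pan-glia markers, from 127690 to 142739 to 20692 to 34107 for astrocyte markers, and from 20996 to 26649 to 3901 to 5187 for hemocyte markers. Scaled to the summed neuron markers, slo alone was called at day 70 (1.42 ± 0.37, edgeR adjusted p = 0.01312; 1.29% of all genes were called higher on this scale), para was at 0.88 ± 0.36, Sh at 0.54 ± 0.41, Shab at 0.74 ± 0.38 and unc80 at -0.04 ± 0.36 (edgeR adjusted p = 0.08225, 0.3288, 0.1547 and 0.9329). With elav alone as the scale, slo was at 0.30 (edgeR adjusted p = 0.7798).

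In whole brain, 6 of the 10 genes rose with age: cac, Shab, eag, Sh, slo and unc80, by 1.31- to 1.62-fold. Of the 9127 genes tested, 11.2% were called higher, and the median log2 difference was 0.45 over the 10 genes and 0.01 over all genes. The gene cac had 1055 normalized counts in the lowest day 5 library, 1424 in the median and 1539 in the highest of 9, and 1840, 2123 and 4344 at day 70. All old libraries lay above all young ones, with a log2 difference of 0.67 ± 0.12 (edgeR adjusted p = 0.0004959). Shab went from 1015, 1346 and 1471 to 1735, 1880 and 5457 (0.70 ± 0.16, edgeR adjusted p = 0.003931) and slo from 2856, 3305 and 3390 to 3865, 4481 and 7160 (0.43 ± 0.08, edgeR adjusted p = 0.001214), again without overlap (2.3% of all genes tested lay apart and higher).

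The differences of eag (0.61 ± 0.13), Sh (0.49 ± 0.14) and unc80 (0.38 ± 0.11) passed as well (edgeR adjusted p = 0.002733, 0.01414 and 0.01909), with overlapping ages. The remaining genes were not called: Shaw at 0.46 ± 0.18, na at 0.15 ± 0.22, para at 0.10 ± 0.14 and Shal at -0.09 ± 0.10 (edgeR adjusted p = 0.07074, 0.6859, 0.6384 and 0.5436). Without 10E12 d70 replicate 1, the highest old library for 9 of the 10 genes, the 6 calls remained at 0.28 to 0.57, Shaw passed at 0.24 (edgeR adjusted p = 0.009706) and na turned to -0.14 (edgeR adjusted p = 0.1867). Within single lines, 5 of the 10 genes passed as higher in 56F03 (all but unc80 of the 6; 5.78% of all genes) and 2 in 86E01 (Shab and cac; 2.31% of all genes). In 10E12, where edgeR called 3 genes of the whole table, the estimates ran from 0.23 for para to 1.21 for Shab and no adjusted p was below 0.2731. Neuron markers did not rise with these genes, as 1 of 14 was higher and 6 were lower (median -0.22). The summed astrocyte markers went from 6304 to 25756 (median 11979) at day 5 to 3288 to 8547 (median 4730) at day 70, and pan-glia markers from 3130 to 11769 (median 6043) to 3079 to 4926 (median 3792). The part of these shifts was not tested. The summed counts of the 10 channel genes were 28.0% to 32.3% of the summed neuron marker counts at day 5 and 35.9% to 58.6% at day 70.

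**Figure D5:**
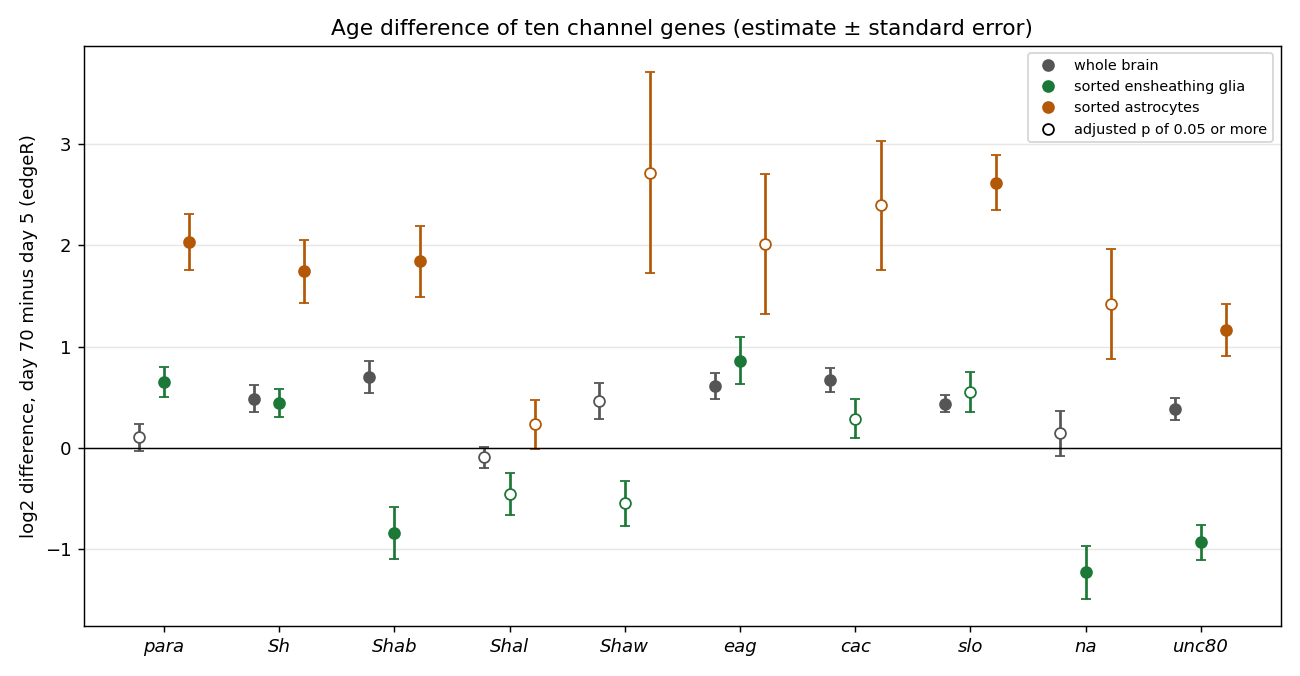
Log2 difference between day 70 and day 5 of the 10 channel genes in whole brain, sorted ensheathing glia and sorted astrocytes, with bars of 1 standard error (filled points: edgeR adjusted p below 0.05). Estimates in astrocytes lie above 1 for all genes but Shal, those in whole brain between -0.09 and 0.70, and those in ensheathing glia from -1.23 for na to 0.86 for eag.

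The age effects were then compared between tissues by the test of the difference itself. These comparisons share libraries with each other and with those above. Between ensheathing glia and astrocytes the age effect differed for 8 of the 10 genes, all lower in ensheathing glia, where 6.41% of 9592 genes were called lower. The differences were -3.14 ± 0.78 for Shaw, -2.64 ± 0.40 for Shab, -2.58 ± 0.50 for na, -2.05 ± 0.25 for unc80, -2.04 ± 0.56 for cac, -2.02 ± 0.35 for slo, -1.34 ± 0.28 for para and -1.25 ± 0.30 for Sh (edgeR adjusted p between 0.0002461 for unc80 and 0.0239 for cac). For Shab, na and unc80 the ensheathing glia fell while the astrocyte estimates were above 0, and for para, Sh and slo both estimates were above 0. Shal (-0.65 ± 0.35) and eag (-1.08 ± 0.60) were not called (edgeR adjusted p = 0.2622 and 0.2884). The value of Shaw was -5.10 without astrocytes d5 replicate 3, the deepest young astrocyte library. Its call ended without astrocytes d70 replicate 1 (-2.37, edgeR adjusted p = 0.05175). The call of cac ended without astrocytes d5 replicate 2 or d70 replicate 1 (-1.95 and -1.70, edgeR adjusted p = 0.06214 and 0.07714), and eag passed without astrocytes d5 replicate 3 (-2.41, edgeR adjusted p = 0.007525).

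Between ensheathing glia and whole brain of the same lines, the age effect was lower in glia for unc80 (-1.41 ± 0.19), Shab (-1.65 ± 0.30), na (-1.61 ± 0.38) and Shaw (-1.18 ± 0.30), with edgeR adjusted p of 9.932e-05, 0.002041, 0.01647 and 0.02706. These are 4 of 10, where 2.75% of 9984 genes were called lower. With sorted and unsorted cells of the same line, age and number paired as a replicate block, 2 of the 4 calls remained, those of Shab and unc80 (1.6% of all genes were then called lower), while na was at -1.48 and Shaw at -1.10 (edgeR adjusted p = 0.07203 and 0.09475). The call of Shaw also ended without any of 5 single libraries (edgeR adjusted p between 0.05406 and 0.05844). No call was made for para (0.42 ± 0.21), Sh (-0.19 ± 0.20), eag (0.16 ± 0.26), slo (0.09 ± 0.24), cac (-0.50 ± 0.25) or Shal (-0.48 ± 0.25), with edgeR adjusted p between 0.2847 and 0.9065. Between astrocytes and whole brain of the same line, the age effect was higher in glia for para (2.15 ± 0.37, edgeR adjusted p = 0.01074) and slo (2.21 ± 0.27, edgeR adjusted p = 0.002228), where 2.97% of 9369 genes were called higher. The other 8 genes had estimates from 0.52 to 2.37 and edgeR adjusted p from 0.05669 to 0.3096. The call of para ended when replicate 1 or replicate 2 of every group was left out (edgeR adjusted p = 0.06161 and 0.1373). That of slo ended without replicate 2 of every group (edgeR adjusted p = 0.08248). Without astrocytes d5 replicate 3, the deepest young astrocyte library, 6 of the 10 passed. Shab (1.69), Shaw (4.40), eag (2.90) and cac (2.81) were then added (edgeR adjusted p between 0.00602 for eag and 0.01243 for Shaw).

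Averaged over the ages, ensheathing glia had more RNA than astrocytes of 4 channel genes: unc80 (0.70 ± 0.13, edgeR adjusted p = 0.001512), slo (0.87 ± 0.18, edgeR adjusted p = 0.003063), na (0.90 ± 0.26, edgeR adjusted p = 0.02959) and para (0.45 ± 0.14, edgeR adjusted p = 0.04494), where 6.77% of 9592 genes were called higher. For all 4 genes the ages were not alike. At day 5 unc80 had 1150 to 1928 normalized counts in ensheathing glia and 364 to 543 in astrocytes, but at day 70 it had 419 to 1302 (mean 867) and 837 to 1223 (mean 997). Likewise na had 208 to 409 and 23.3 to 90.9 at day 5, and 45.2 to 212 (mean 133) and 141 to 200.4 (mean 163) at day 70. At day 5 para had 250 to 488 in ensheathing glia and 146 to 195 in astrocytes, and slo had 285 to 1077 and 160 to 229. At day 70 the 2 types overlapped, with 458 to 1041 and 577 to 868 for para and 798 to 1749 and 911 to 1429 for slo. The libraries of the 2 types overlapped for each of the 10 genes (0.136% of all genes tested lay apart and higher). The call of para ended without any of 12 single libraries and that of na without any of 5, and without astrocytes d5 replicate 3 as many as 8 genes passed. With line 56F03 alone para and slo did not pass (0.13 and 0.48, edgeR adjusted p = 0.7018 and 0.145), and with 10E12 alone na and unc80 did not (0.58 and 0.31, edgeR adjusted p = 0.3499 and 0.3119). Neuron markers differed the same way, with 5 of 14 higher in ensheathing glia (median 0.67), and their part was not tested.

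The other channel genes of the same families gave a reference. Of 36 symbols of such genes that were listed, 34 were in the table of counts and 32 were tested. The listed symbols stol and CG4587 name the same gene, which was counted as CG4587. In ensheathing glia 25 were lower than in whole brain and 6 higher, where 28.6% and 26.8% of all genes tested were. All 3 chloride channel genes were among the higher ones, with ClC-a at 2.57 ± 0.12, ClC-b at 0.47 ± 0.10 and ClC-c at 0.34 ± 0.11 (edgeR adjusted p = 2.828e-14, 0.0004678 and 0.009803). So were the background potassium channel gene Ork1 (2.87 ± 0.13) and the inward rectifier genes Irk2 (1.76 ± 0.13) and Irk3 (1.59 ± 0.22), with edgeR adjusted p of 4.903e-14, 6.187e-11 and 1.135e-06. Irk2 had 415 to 1516 normalized counts in whole brain, 1961 to 4160 in ensheathing glia and 2173 to 6515 in astrocytes. In astrocytes 24 of the 32 were lower and 5 higher (23.8% and 24.9% of all genes): ClC-a (2.52), Irk2 (2.50), Ork1 (2.20), Irk3 (1.72) and ClC-b (0.52). All 10 other potassium channel genes of the voltage- and calcium-gated families, their partners included, and all 5 other calcium channel genes were lower in both glial types.

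With age, 4 of these 32 genes rose and 6 fell in ensheathing glia, against 9.74% and 9.15% of all genes. The smallest p belonged to Irk2 (-0.77 ± 0.11), Ih (1.21 ± 0.18), which encodes the cation channel opened by hyperpolarization and cyclic nucleotides, and Ork1 (-1.24 ± 0.20), with edgeR adjusted p of 0.0003514, 0.0003947 and 0.0008595. In astrocytes 7 of 31 rose and 1, Irk2, fell (-1.36 ± 0.16, edgeR adjusted p = 0.002625), against 2.8% and 3.65% of all genes. The next smallest p were those of dysc (2.60 ± 0.34), which encodes a scaffold protein that binds the Slo channel, and Hk (1.78 ± 0.29), which encodes the cytoplasmic subunit of the Shaker channel (edgeR adjusted p = 0.00446 and 0.01023). In whole brain 8 of 32 rose and 3 fell (11.2% and 10.7% of all genes), led by Teh2 (-0.48 ± 0.06), a partner of the sodium channel, the calcium channel gene Ca-alpha1D (0.60 ± 0.10) and the potassium channel gene Elk (0.55 ± 0.09), with edgeR adjusted p of 4.335e-05, 0.0004044 and 0.0004493. Of 4 RNA-binding or editing factors that act on channel transcripts in the fly (pum, mle, ps and Adar), ps rose and Adar fell in old ensheathing glia (0.69 ± 0.14 and -0.71 ± 0.19, edgeR adjusted p = 0.003267 and 0.01791), pum fell in old astrocytes (-0.97 ± 0.17, edgeR adjusted p = 0.01402) and none was called in whole brain, where their estimates lay between -0.06 and 0.08. Against whole brain, 1 of the 4 (ps) was lower in astrocytes and 3 (ps, pum and Adar) were lower in ensheathing glia.

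Across the 12 group means on a log2 scale, the gene most like unc80 among 10412 genes was unc79 (Pearson's r = 0.990) and the gene most like slo was dysc (r = 0.994). The nearest to para and to Sh was the same gene, mub (r = 0.994 and 0.996). For eag it was Nlg3 (r = 0.995), for cac X11Lbeta (r = 0.996), for Shaw Nmdar2 (r = 0.989), for Shab amon (r = 0.986), for na CG40498 (r = 0.984) and for Shal ari-1 (r = 0.976). These values describe 12 means that share the contrast between whole brain and sorted cells and the depth of their libraries. Over the 6 sorted groups alone, the correlation was 0.987 between na and unc80, 0.979 between para and slo, 0.953 between para and Sh and 0.957 between Shab and unc80, but 0.145 between para and unc80 and -0.28 between Shal and eag.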

How the data were processed

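RNA was sequenced as polyA RNA by a protocol based on Smart-seq3 from pooled brains. Per the authors, reads were aligned to build dm6 with STAR 2.7.3a, unmapped and improperly paired reads were removed, and read pairs were counted over the exons of FlyBase genes with summarizeOverlaps in its union mode. The deposited table holds these raw counts, which are whole numbers and not normalized. Whether strand or molecular identifiers were used in counting is not given in the sources used here, so the treatment of reads over overlapping antisense genes is not known. In the shallowest and the deepest library, 3 counts were 3.29 and 0.176 CPM (total counts scaled to the same sum in each library).

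Each comparison was tested with the quasi-likelihood test of edgeR 4.0.16 in R 4.3.3 (two-sided, TMM normalization, filterByExpr, Benjamini-Hochberg adjustment over all genes tested, calls at an adjusted p below 0.05) on the libraries of the groups compared, with driver line as a covariate in the age comparisons and group means elsewhere. The standard error is the log2 difference divided by the root of the F statistic, so it carries no more than the test. Levels are counts divided by DESeq2 1.42.0 size factors over all 36 libraries, and levels per kb use the union of exons of Ensembl release 115 (assembly BDGP6.54, the coordinates of dm6). For the values per neuron marker count, the library size was the summed count of 14 neuron markers: elav, nSyb, brp, Syt1, cpx, Syx1A, fne, CadN, Rbp9, VAChT, ChAT, VGlut, Gad1 and VGAT. The test was also run on simulated counts with known changes, which lacked the outlying library and the marker shifts of the data.

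The channel genes, marker lists and other channel genes were chosen with earlier results of these data known. All 10 genes are given in every comparison, and of the other channel genes those higher in sorted glia and, for age, the 3 with the smallest p. The test between the ensheathing glia lines and the scales by elav alone and by the geometric mean of the markers were added after seeing the data. Replicate numbers come from the labels and each replicate is a pool of brains, so that p-values measure the spread between these pools. Per the authors, the unsorted suspensions came from the same brains as the sorted cells. Sorted and unsorted libraries of the same line, age and number were taken as pairs, which the labels do not state. The main tests did not use this pairing. Their deviations from the group means correlated at -0.0062 to 0.240 over 18 pairs (mean 0.0750).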

Additional observations from a re-analysis of the deposited data

Results flagged for a closer look

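The age effect (day 70 against day 5, log2) differed between tissues for 14 combinations of a channel gene and a pair of tissues, by the edgeR test of the difference itself. Between ensheathing glia and astrocytes it differed by -1.34 for para, -1.25 for Sh, -2.64 for Shab, -3.14 for Shaw, -2.04 for cac, -2.02 for slo, -2.58 for na and -2.05 for unc80. Between ensheathing glia and whole brain of the same lines it differed by -1.65 for Shab, -1.18 for Shaw, -1.61 for na and -1.41 for unc80. Between astrocytes and whole brain of the same line it differed by 2.15 for para and 2.21 for slo. These comparisons share libraries, and the sums of neuron, glia and hemocyte markers given above moved with age in astrocytes. Their part in these differences was not tested.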

How the results depend on the processing

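Across the alternatives other than leaving out replicates, 823 values of single channel genes kept their direction and their side of the threshold, 41 passed and 58 no longer passed the test, and 30 changed sign. Without single libraries these numbers were 1372, 22, 53 and 3, and without a replicate number 311, 4, 64 and 11. Depth limits low genes, as 3 counts were 3.29 CPM in the shallowest library. The 10 lower calls in ensheathing glia against whole brain were the same under each alternative run. The cause of the changes below was not tested.

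For sorted cells against whole brain, keeping only genes with 10 or more counts in each library gave 3191 calls over all genes in ensheathing glia, and 6 lower channel genes in astrocytes. Here and below, this filter left genes with fewer counts in any library untested, such as Shaw in astrocytes. A smaller number of channel genes under it need not mean lost calls. Day 70 alone gave 2852 calls in astrocytes. Leaving out replicates gave 4399 to 5983 calls in ensheathing glia and 3199 to 4772 in astrocytes, with 10 to 10 channel genes lower in both. Ensheathing glia against astrocytes had 2 higher channel genes with 10E12 alone, and 1 to 8 (444 to 1338 over all genes) without replicates. Shal turned to -0.11 with 56F03 alone, and Shab and eag to -0.065 and -0.011 with 10E12 alone.

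Per neuron marker count, ensheathing glia had 4377 calls with 10 or more counts in each library, 6 higher and 2 lower channel genes with elav alone (Shab 0.69, Shaw 0.75, cac 0.20 and slo 0.32 changed sign), 5 higher with 56F03 alone (Shab 0.43, Shaw 0.27) and 1 higher with 10E12 alone (na -0.50). With the geometric mean Shaw was at 0.015. Without replicates there were 7751 to 8492 calls, 2 to 3 higher and 5 to 6 lower channel genes, with Shaw from -0.45 to 0.0069 and na from -0.13 to 0.35. Astrocytes had 3 lower channel genes with 10 or more counts, 3 with the geometric mean (Shab 0.17) and 0 with elav alone (para 0.099, Shab 0.83, Shaw 0.15, cac 0.0017, slo 0.26). Without replicates they had 6919 to 7544 calls, 1 to 2 higher and 3 to 4 lower, with na from -0.38 to 0.24. The age effect in astrocytes on this scale had 2 higher channel genes with DESeq2, 2 with no filter, 0 with elav alone (para -0.14, Sh -0.13, Shab -0.37, na -0.17) and 0 with the geometric mean (4317 calls, 1 lower, na -0.19), and 1 lower with 10 or more counts. Without replicates it had 410 to 2218 calls and 0 to 1 higher, with unc80 from -0.20 to 0.32.

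For age in ensheathing glia, 56F03 alone gave 1 higher and 0 lower channel genes, and 10E12 alone gave 0 higher (825 calls over all genes). Without replicates there were 771 to 1692 calls, 0 to 3 higher and 1 to 4 lower. In astrocytes DESeq2 gave 8 higher channel genes of 1224 calls, and 1 fit over all 36 libraries gave 9 of 2226. Without replicates the calls numbered 77 to 522, with 1 to 6 channel genes higher. In whole brain 56F03 alone gave 1086 calls (na -0.067), 10E12 alone 3 with 0 channel genes (Shal 0.26), and 86E01 alone 534 with 2 (para -0.15, na -0.27). Without replicates there were 790 to 2732 calls and 4 to 7 higher channel genes, with na from -0.16 to 0.27.

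For the differences of age effects, ensheathing glia minus astrocytes had 5 lower channel genes with 10 or more counts, 4 with 56F03 alone (241 calls), and 2 to 9 (204 to 1350 calls) without replicates. Ensheathing glia minus whole brain had 760 calls with DESeq2, 0 channel genes of 179 with 56F03 alone, 1 of 43 with 10E12 alone (eag -0.017, slo -0.073) and 1 to 4 of 70 to 600 without replicates, with eag from -0.049 to 0.34 and slo from -0.060 to 0.21. Astrocytes minus whole brain had 7 of 870 with DESeq2, 7 of 786 in the fit over all libraries, 4 with 10 or more counts and 0 to 6 of 0 to 843 without replicates. Between the ensheathing glia lines there were 278 calls with DESeq2, 257 with no filter and 5 to 291 without replicates, with para from -0.33 to 0.32, eag from -0.47 to 0.16 and Shal from -0.11 to 0.27.

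With the replicate block, which pairs sorted with unsorted cells of the same line, age and number, ensheathing glia minus whole brain had 2 lower channel genes of 269 calls, and astrocytes minus whole brain had 212 calls. Per neuron marker count, na in astrocytes turned to -0.063, and the block changed no other call of a channel gene between sorted cells and whole brain. In the comparisons without both kinds of cells the block joined samples that share only a number. It then ended the calls of Sh and Shab for age in ensheathing glia, of unc80 in astrocytes and of cac between the glial types, added Shab between the glial types, and gave 24 calls between the lines and 2 higher channel genes per neuron marker count in old astrocytes, where unc80 was at 0.024.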
